A study of Homo sapiens with 36 samples.

Results

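Of 54382 merged CTCF regions in HEK293T cells, 2526 held a peak in the control list and in 4 knockdown lists but none in the list of cells treated with small interfering RNA against CHD4. HEK293T is a human embryonic kidney line. Each region joined overlapping or touching peaks of 6 lists, on chromosomes 1 to 22 and X. The lists were those of siNC, the control small interfering RNA, and of siCHD3, siCHD4, siCHD5, siMBD2 and siMBD3. Each pooled 3 CTCF immunoprecipitates of 1 condition, called against control by the authors, and the series held 18 immunoprecipitates and 18 inputs in all. All groups shared the cell line and differed by the small interfering RNA transfected. The time after transfection was not given in the sources used here, and the depletion of the targets was not analysed here. The regions were chosen by which lists held a call, so "lost" means only that no siCHD4 peak was called there. With 1 pooled list per condition there is no spread between replicates, and the values below are descriptions with no test between conditions.

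CTCF is a zinc-finger protein that binds a long DNA motif at insulators and at the anchors of chromatin loops, and it often stays bound across cell types. CHD4 is the main ATP-dependent motor of NuRD, a complex that slides nucleosomes and carries histone deacetylases. CHD3 and CHD5 are related motors that can take its place in the complex, while MBD2 and MBD3 are alternative subunits, of which MBD2 binds methylated DNA. CTCF sites are known to lie in short stretches of open DNA flanked by regularly spaced nucleosomes. The positions below are hg19, counted from 1. The sequences and genes at these regions were not analysed here, because a genome and annotation of that build were not used.

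A peak is described here by its fold, pileup and background. Fold enrichment, the authors' deposited value, is the signal at the summit, the highest point of the peak, over the local background. Pileup is the number of fragments over the summit, and background is the number expected there, both solved from the authors' fold and p. In that solution, fold is pileup over background with 1 added to each, which lowers fold more where background is small. Depth differed between the lists. The lowest background in a list, which follows depth times fragment length, was 1.06 fragments per bp in siCHD4. It was higher in siNC (2.96) and siCHD5 (1.95) and lower in siMBD2 (0.640), siCHD3 (0.445) and siMBD3 (0.374). So 3 of the 5 lists that held peaks at these regions had less background coverage than the siCHD4 list that held none. The share of depth in the result was not tested.

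Among regions with a peak in the 5 other lists, a missing siCHD4 peak was the most frequent single absence. Of 14337 regions called in siNC, siCHD3, siCHD5, siMBD2 and siMBD3, 2526 had no siCHD4 peak, a background share of 17.6% (exact Clopper-Pearson 95% interval 17.0 to 18.3, counting error only), and 11811 were called in all 6 lists. The same count made for the other lists gave 1772 of 13583 regions lacking only siCHD3 (13.0%, interval 12.5 to 13.6) and 1592 of 13403 lacking only siMBD3 (11.9%, interval 11.3 to 12.4). It gave 921 of 12732 for siMBD2 (7.23%), 439 of 12250 for siCHD5 (3.58%) and 46 of 11857 for siNC (0.388%). The siCHD4 list was the shortest, with 25358 peaks. The others held 25848 (siMBD3), 26087 (siMBD2), 31451 (siCHD5), 34319 (siCHD3) and 36270 (siNC). With every other list cut to 25358 peaks, the siCHD4 share was still the highest of the 6, at 16.0% (2041 of 12730). The siCHD3 share was then close to it, at 15.4% (1949 of 12638), and no interval was computed for these cut lists. The part of list length in these shares was not tested. When only peaks with a −log10 q of 10 or more were kept in the 6 lists, the order changed. The shares were then 21.1% for siCHD3, 20.3% for siCHD4 and 19.2% for siMBD3. All these shares use the same 6 lists, so they are not independent of one another.

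Most control regions without a siCHD4 peak were also missing from other lists. A siNC peak was present in 35931 regions, of which 14973 (41.7%) had no siCHD4 peak. The regions lacking only siCHD4 made up 16.9% of those 14973. A further 3048 (20.4%) held a peak in 3 of the other 4 knockdown lists, 3191 (21.3%) in 2, 3326 (22.2%) in 1 and 2882 (19.2%) in none. Of the siNC regions with a siCHD4 peak, 56.4% held one in all 4 other knockdown lists, 22.5% in 3, 12.5% in 2, 7.51% in 1 and 1.05% in none. Control fold rose along this series. Its median was 4.06 in regions with no peak in any knockdown list, 4.39 with 1, 4.69 with 2, 5.05 with 3 and 5.35 in the 2526 regions. The 2526 regions had the highest median of the 5 sets, with folds that reached down to 2.34.

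The regions lay near the middle of each list that called them. In siNC their fold ran from 2.34 to 15.1 with a median of 5.35, against a median of 6.10 in regions called in all 6 lists. The medians were 6.36 against 7.20 in siCHD3 and 6.66 against 7.57 in siCHD5. They were 6.63 against 7.39 in siMBD2 and 6.75 against 7.61 in siMBD3. Every list that called the regions thus placed their median at 0.876 to 0.897 of its median over the regions called in all 6. Within each list, the median region stood at the 53.1st percentile of fold in siNC, the 52.2nd in siCHD3, the 51.8th in siCHD5, the 50.3rd in siMBD2 and the 51.0th in siMBD3. Between 2.02% (siCHD3) and 8.51% (siCHD5) of the regions were in the top 10% of a list. A siNC median below 6.10 was not particular to them. It was 5.56 in regions lacking only siCHD3, 5.65 for siMBD3, 5.43 for siMBD2 and 5.09 for siCHD5. Regions lacking only siCHD3 or only siMBD3 also had lower medians in every list that called them. Not every set did, as siCHD3 fold had a median of 17.8 in regions lacking only siCHD5.

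**Figure D1:**
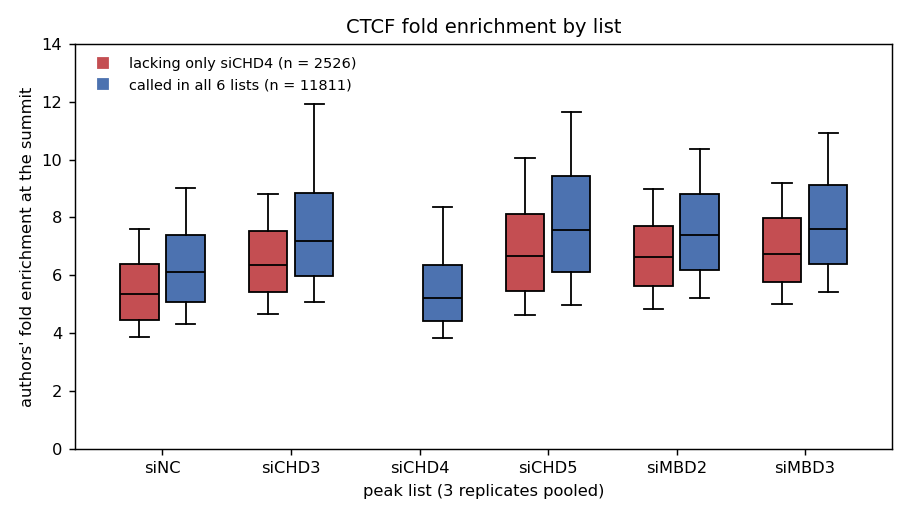
Fold enrichment by peak list for the 2526 regions lacking only siCHD4 (red) and the 11811 regions called in all 6 lists (blue). Boxes span the quartiles with the median as a line, and whiskers reach from the 10th to the 90th percentile over regions. The red medians lie below the blue ones in each of the 5 lists, and the siCHD4 box, blue only, has the lowest median of the 6 blue boxes (5.22).

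Pileup separated these regions from those called in all 6 lists more than fold did. The median summit pileup was 76 fragments against 101 in siNC and 52.5 against 70 in siCHD5. The shallower lists gave 22 against 28 (siMBD2), 18 against 23 (siCHD3) and 17 against 22 (siMBD3). The ratios ran from 0.750 to 0.786. Local background was lower too, with a median of 13.5 against 15.6 fragments in siNC and 7.11 against 8.18 in siCHD5. The background ratios ran from 0.818 (siMBD2) to 0.870 (siCHD5). The regions were thus weaker in count and lay in lower background in every list that called them. When the 14337 regions were ranked by siNC pileup, 488 of the 1434 in the lowest 10% had no siCHD4 peak (34.0%, interval 31.6 to 36.5), with pileups of 17 to 53. In the fifth decile, with pileups of 86 to 96, 260 of 1434 had none (18.1%, interval 16.2 to 20.2). In the highest 10%, with pileups of 160 and more, 20 of 1433 had none (1.40%, interval 0.855 to 2.15).

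The other absences also followed pileup, at different levels. In the lowest 10% of siNC pileup, ranked separately for each list left out, 30.4% lacked siMBD3, 28.3% lacked siCHD5, 28.2% lacked siCHD3 and 25.9% lacked siMBD2. In the fifth decile the shares were 13.5% for siCHD3, 12.2% for siMBD3, 5.81% for siMBD2 and 0.327% for siCHD5, against 18.1% for siCHD4. Of the 439 regions lacking only siCHD5, 347 lay in the lowest 10% of pileup, against 488 of the 2526 lacking only siCHD4. In the highest 10% the shares for siCHD3 (1.69%), siMBD3 (1.49%) and siCHD4 (1.40%) had overlapping intervals. By siNC fold the fall was less steep, from 32.0% without siCHD4 in the lowest 10% to 7.33% in the highest (interval 6.03 to 8.80).

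**Figure D2:**
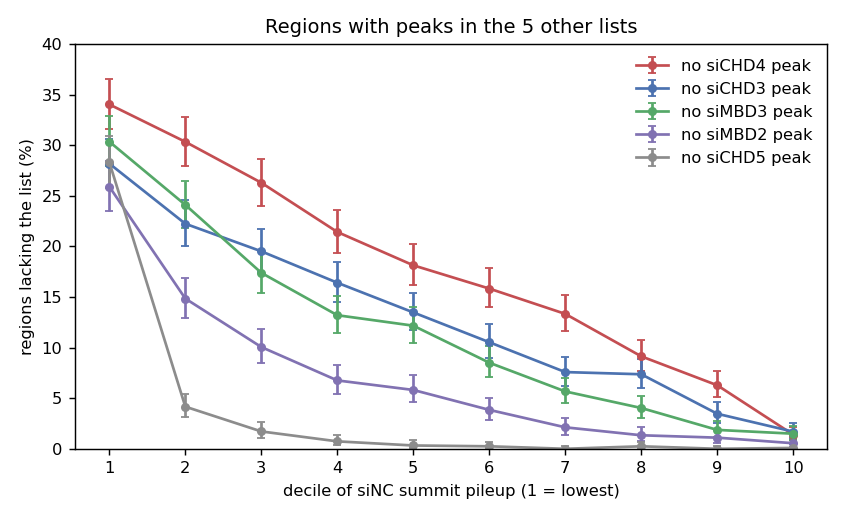
Share of regions lacking 1 list, in percent, by decile of siNC summit pileup, among regions with a peak in the 5 other lists. Points are shares, bars are exact 95% intervals for counting error, and each colour is the list left out. The siCHD4 line falls from 34.0% to 1.40% and is the highest in the fifth decile, at 18.1%, while the siCHD5 line is at 0.327% there.

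At most regions called in all 6 lists, the siCHD4 fold was lower than the siNC fold. Across these 11811 regions, the siCHD4 fold was below the siNC fold in 65.3%, with a median ratio of 0.879 (10th to 90th percentile 0.594 to 1.47). The added 1 lowers fold more in siCHD4, where median background was 6.05 here, than in siNC, where it was 15.6. It lowers fold still more in siMBD2, siCHD3 and siMBD3, where median background ran from 2.95 (siMBD2) down to 1.93 (siMBD3). Median background in siCHD5 was 8.18. Relative to siNC, siCHD4 pileup was 0.362 and siCHD4 background 0.378 at the median. The share of the added 1 in the fold ratio was not tested. The other knockdown lists, including those of lower background than siCHD4, were below siNC in 24.4% (siMBD3) to 29.5% (siCHD3) of these regions. Their median ratios ran from 1.21 to 1.26. At the 2526 regions themselves the median ratios to siNC were close to those, at 1.18 in siCHD3, 1.23 in siMBD2, 1.25 in siCHD5 and 1.28 in siMBD3. The siCHD4 fold is known only where siCHD4 was called, and its part in the 2526 regions was not tested.

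Regions of like control fold that kept a siCHD4 peak give siCHD4 values, which lie above the threshold by choice of called regions. In the 5271 regions called in all 6 lists with a siNC fold of 4.46 to 6.40, the quartiles of the 2526 regions, the siCHD4 fold had a median of 4.96 (quartiles 4.27 and 5.83), a median pileup of 36 and a median −log10 q of 12.7. Their siNC pileup was higher, at a median of 100 against 79 in the regions lacking only siCHD4 within the same range of fold. Over all regions called in 6 lists, siCHD4 pileup was 0.362 of siNC pileup and siCHD4 background 0.378 of siNC background at the median. Scaling the siNC values of the 2526 regions by these ratios gave a median siCHD4 pileup of 27 over a background of 5.11, and a median −log10 p of 11.7. The smallest −log10 p in the siCHD4 list was 3.79, and the scaled values passed it in 2506 regions (99.2%). The same calculation passed it in 99.6% of the regions where siCHD4 was called. For the other absences, 98.0% of regions lacking only siMBD2 to 99.5% of those lacking only siCHD3 passed the smallest p of the list left out, so the scaling passes nearly every region and does not separate called from uncalled ones. The ratios come from regions that were called in siCHD4, which favours high siCHD4 values, and the scaling holds no variation between libraries or regions.

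The evidence for a peak varied among the lists. The median −log10 q of the regions was 28.6 in siNC and 24.9 in siCHD5, but 11.0 in siMBD2, 9.45 in siCHD3 and 9.41 in siMBD3. The weakest of the 5 calls was that of siCHD3 in 997 regions (39.5%), siMBD3 in 940 (37.2%), siMBD2 in 552 (21.9%), siCHD5 in 24 and siNC in 13. The 3 lists with the least background coverage thus supplied nearly all of the weakest calls. In 1884 regions (74.6%) each of the 5 calls had a −log10 q of 5 or more, in 505 (20.0%) of 10 or more, in 77 (3.05%) of 15 or more and in 7 of 20 or more. Of regions called in all 6 lists, 46.3% reached 10 and 18.1% reached 15 in the same 5 lists. Requiring 15 in these 5 lists, with siCHD4 peaks kept at any deposited q, left 3.47% of regions without a siCHD4 peak (interval 2.75 to 4.32). A threshold on the 5 lists alone favours a low share. At 10 the share was 8.44% in that way, but 20.3% with the threshold on siCHD4 as well. The other lists were not left out in the same way.

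The 5 lists placed these peaks at nearly the same base. The distance between the outermost of the 5 summits had a median of 25 bp (quartiles 18 and 36), against 22 bp over the same 5 lists in regions called in all 6. It was at most 50 bp in 2260 regions (89.5%, against 90.3%) and at most 100 bp in 2483 (98.3%, against 95.4%). The regions were single narrow peaks. Their median width was 379 bp (quartiles 341 and 421), against 409 bp, and 3 were wider than 1 kb, against 329 of the regions called in all 6. These widths join the peaks of 5 lists here and of 6 in the comparison, and a wider region more readily meets a siCHD4 peak. The part of this in the difference was not tested. The siNC peaks alone had a median width of 315 bp against 352 bp. Several siNC summits were listed in 20 regions (0.792%), against 473 of the 11811. Fold was shared less well than position. Spearman's rho between lists over the 2526 regions ran from 0.0983 (siNC with siMBD3) to 0.299 (siNC with siCHD5), as a description across regions that share libraries and depth. It ran from 0.153 (siCHD3 with siCHD5) to 0.366 (siNC with siCHD5) in the 11811 regions called in all 6 lists.

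The region of highest control fold lay on chromosome X from 86554566 to 86555298. Its fold was 15.1 in siNC, 13.0 in siCHD5, 9.08 in siCHD3, 8.68 in siMBD2 and 7.78 in siMBD3, with the 5 summits lay within 27 bp. Each of the 5 lists thus held it at more than its own median fold. Its siNC pileup was 100 fragments, and the nearest siCHD4 peak was 38284 bp away.

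On chromosome 16, a region from 13547801 to 13548219 had a fold of 14.8 in siNC, 9.07 in siCHD5, 7.02 in siCHD3, 6.68 in siMBD2 and 5.78 in siMBD3. The nearest siCHD4 peak was 411857 bp away. A second region on that chromosome, from 32773712 to 32774214, had a fold of 14.5 in siNC, 6.35 in siCHD3, 9.05 in siMBD3, 12.5 in siMBD2 and 17.6 in siCHD5. It was among the leading 10 both by siNC fold and by median rank over the 5 lists. The values of these regions fell low in different lists, the first in siMBD3 and the second in siCHD3.

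A region on chromosome 19 from 55185457 to 55185893 was the other one among both leading sets. Its fold was 13.8 in siNC, 15.1 in siCHD5, 11.0 in siMBD3, 10.3 in siCHD3 and 8.37 in siMBD2, and the summits lay within 15 bp. A siCHD4 peak lay 1908 bp away, the closest among the leading 10 by siNC fold.

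The leading 10 by control fold also included 2 regions on chromosome 3, at 16360838 to 16361233 (siNC fold 14.5) and at 183945190 to 183945577 (siNC fold 13.4). Chromosome 14 held one at 87369761 to 87370277 (siNC fold 13.1) and chromosome 4 one at 17449301 to 17449703 (siNC fold 13.0). The last ones were on chromosome 11 at 93904845 to 93905244 (siNC fold 12.8) and on chromosome 12 at 129677782 to 129678234 (siNC fold 12.6). Over all 10, fold in siNC was 12.6 to 15.1, while it was 5.29 to 10.3 in siCHD3, 5.30 to 11.0 in siMBD3, 6.68 to 12.5 in siMBD2 and 6.62 to 17.6 in siCHD5. The siNC fold, by which they were chosen, was above that of siCHD3, siMBD2 and siMBD3 in 10 of 10 regions and above that of siCHD5 in 6. All 10 exceeded the median fold of the siCHD5 and siMBD2 lists, 8 that of siCHD3 and 6 that of siMBD3. Choosing the regions by siNC fold favours lower values in the other lists. Fold also carries the added 1, which lowers it more where background is small. In the chromosome X region, siNC had 100 fragments over a background of 5.69 and siCHD3 had 19 over 1.20. The share of each in the lower values was not tested.

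**Figure D3:**
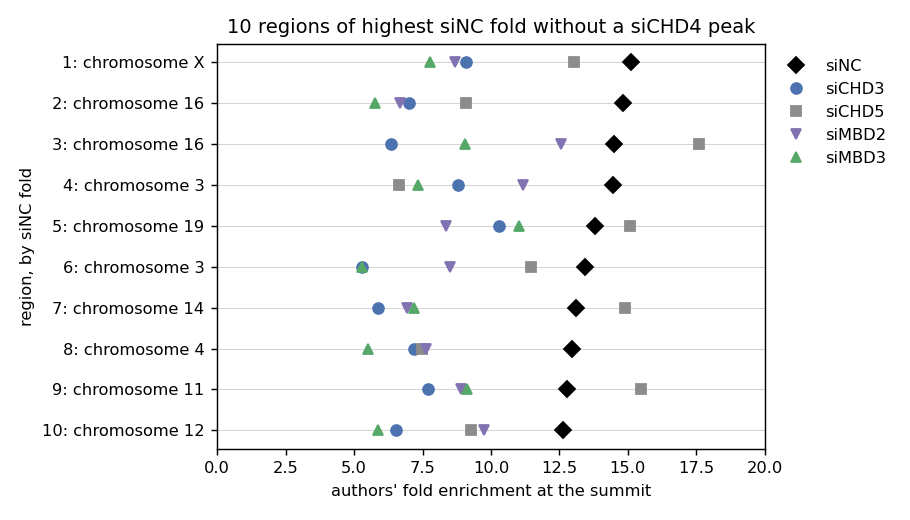
Fold enrichment in the 5 lists that held a peak, for the 10 regions of highest siNC fold among those lacking only siCHD4, ordered from the top. Each marker is 1 pooled list. The siNC values span 12.6 to 15.1, and the siCHD3 and siMBD3 values lie at 5.29 to 11.0.

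Ranking by the median of the 5 ranks gave regions that were strong in several lists. The first lay on chromosome 8 from 58333114 to 58333468. Its fold was 11.9 in siNC, 15.6 in siCHD5, 15.0 in siMBD2, 10.8 in siCHD3 and 9.98 in siMBD3. Its lowest value was thus close to 10. On chromosome 18, the region from 58755889 to 58756293 had a fold of 11.2 in siNC, 13.2 in siCHD5, 13.5 in siMBD3, 10.6 in siCHD3 and 8.56 in siMBD2. On chromosome 2, the region from 4006806 to 4007360 had a fold of 10.0 in siNC, 10.1 in siCHD3, 10.2 in siMBD2, 10.4 in siMBD3 and 20.6 in siCHD5, the last being the highest siCHD5 fold of all 2526 regions. Near the start of chromosome 1, the region from 11084 to 11599 had its highest fold in siCHD3 (18.1), against 6.36 in siNC, 7.32 in siCHD5, 11.9 in siMBD2 and 11.0 in siMBD3. The siNC fold was thus the lowest of the 5 there, whereas it was not the lowest in the region on chromosome 8.

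Few regions had a siCHD4 peak just beside them. This distance was not measured for other regions, so it is not known whether these regions were more isolated than others. The nearest siCHD4 peak was at a median distance of 27934.5 bp (quartiles 10094.5 and 69452.8), and 2462 of 2526 regions had none within 1 kb. Of the 64 with one within 1 kb, the neighbouring region was called in all 6 lists in 35, held no siNC peak in 9 and was called in siCHD4 alone in 3. At 413 regions (16.4%) the nearest siCHD4 peak was more than 100000 bp away. The most isolated lay on chromosome 13 from 105426049 to 105426429, with the nearest siCHD4 peak 1717060 bp away and a fold of 5.00 in siNC and 10.5 in siCHD5. The next lay on chromosome 21 from 23293981 to 23294290, with a distance of 1477800 bp and a fold of 6.31 in siNC.

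**Figure D4:**
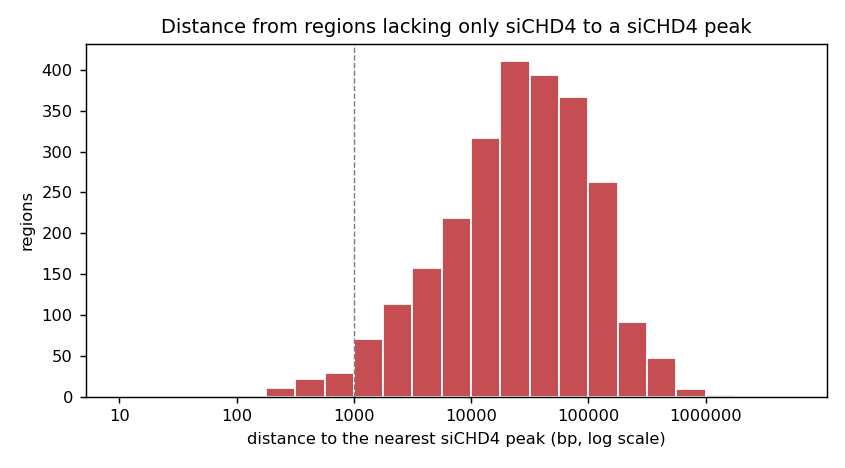
Number of regions lacking only siCHD4 by distance to the nearest siCHD4 peak, on a log axis in bp. The dashed line marks 1000 bp, to the left of which 64 of the 2526 regions lie.

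The siCHD4 list holds no values below its threshold, so how near the 2526 regions came to a siCHD4 call is not known. Just inside the rule by position, a region on chromosome 16 from 29465032 to 29465678 had a siCHD4 peak 23 bp away, and one on chromosome X from 87390713 to 87391139 had one 71 bp away. Just outside, the region on chromosome 6 from 142553589 to 142553966 had a siCHD4 −log10 q of 1.31 and a siCHD4 fold of 2.64, against 5.25 in siNC and 7.78 in siCHD5. The region on chromosome 7 from 12564444 to 12564800 followed, with a siCHD4 −log10 q of 1.32 and a siCHD4 fold of 2.51, against 5.41 in siNC and 11.4 in siCHD5. Of the 11811 regions called in all 6 lists, 20 (0.169%) had a siCHD4 −log10 q under 2. The weakest of 5 calls is a different measure, and it was under 2 in 29 of the 2526 regions (1.15%). In the same 5 lists, every call reached 2 in 98.85% of the 2526 regions and in 98.95% of those called in all 6.

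Regions lacking only siCHD4 were found on all 23 chromosomes. The share of the 14337 regions without a siCHD4 peak had an interval that held the overall 17.6% on 21 chromosomes. It was lower on chromosome X, with 94 of 749 (12.6%, interval 10.3 to 15.1), and on chromosome 1, with 244 of 1679 (14.5%, interval 12.9 to 16.3). The highest share was on chromosome 18, with 38 of 168 (22.6%, interval 16.5 to 29.7). Median siNC pileup was 115 on chromosome 1, 99 on X and 70 on 18. Among the regions in the middle tertile of siNC pileup (80 to 114), 11.9% lacked siCHD4 on X (25 of 210, interval 7.85 to 17.1) and 17.4% on the autosomes (interval 16.3 to 18.6). In the highest tertile the shares were 2.69% (8 of 297, interval 1.17 to 5.24) and 6.49% (interval 5.79 to 7.25), and in the lowest tertile 25.2% (interval 19.9 to 31.2) and 29.6% (interval 28.3 to 31.0). Chromosome 1 gave 32.4% in the lowest tertile, 16.4% in the middle and 5.09% in the highest, each with an interval that held the autosomal share. The shares lacking only siCHD3 (10.8% on X), siCHD5 (3.39%), siMBD2 (4.24%) and siMBD3 (11.0%) on X were also below those over all chromosomes. So were those for siCHD3 (8.54%), siMBD2 (5.65%) and siMBD3 (7.95%) on chromosome 1, but not that for siCHD5 (3.63% against 3.58%). On chromosome 18 the shares for siCHD3 (22.2%), siCHD5 (5.11%), siMBD2 (9.09%) and siMBD3 (20.7%) were likewise above those over all chromosomes.

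**Figure D5:**
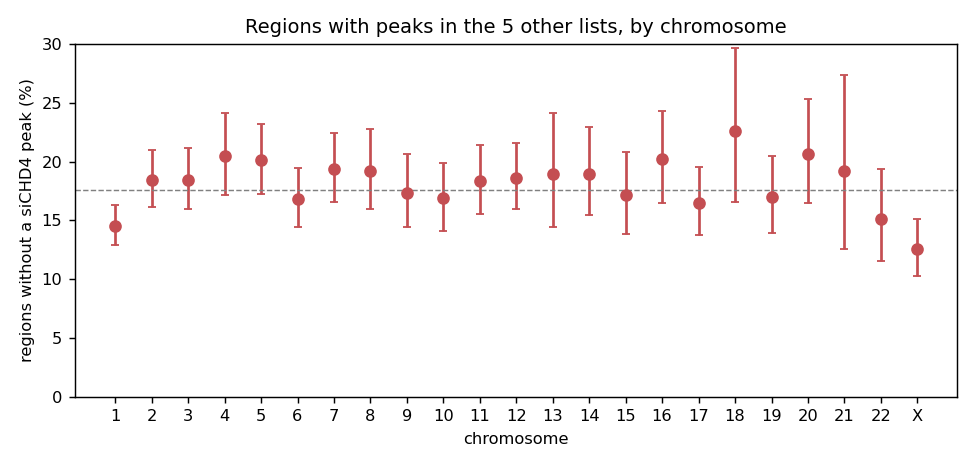
Share of regions without a siCHD4 peak, in percent, by chromosome, among regions with a peak in the 5 other lists. Bars are exact 95% intervals for counting error and the dashed line is the overall 17.6%. Chromosomes 1 (14.5%) and X (12.6%) have intervals wholly below the line.

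Most of the 2526 regions had no neighbour of the same kind, but they were few among the 35931 regions with a siNC peak. The next region along the chromosome, among the 14337, also lacked siCHD4 for 19.2% of these regions (483 of 2522, interval 17.6 to 20.7) and for 17.3% of those called in all 6 lists (interval 16.6 to 18.0). Counted over all 35931 regions with a siNC peak, 2185 of the 2526 stood alone, 156 runs held 2 neighbours, 8 held 3 and 1 held 5. So small a part of the regions leaves most without such a neighbour, and these counts were not compared with another set. The run of 5 spanned 165587 bp on chromosome 7, from 101879952 to 102045538. Its siNC folds ran from 3.36 to 4.51, all below the median of the 2526 regions, and the span held 1 siCHD4 peak, which did not overlap a siNC peak.

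Sparse surroundings went with slightly more absences. In the 20% of the 14337 regions with the fewest siNC peaks within 500 kb (0 to 10), 601 of 2868 lacked siCHD4 (21.0%, interval 19.5 to 22.5), against 426 of 2867 (14.9%, interval 13.6 to 16.2) in the 20% with the most (25 to 57). Median siNC pileup rose with density, from 86 to 103 fragments. Its part in this difference was not tested. Over 318 windows of 5 Mb with at least 20 of the 14337 regions, the share lacking siCHD4 had a median of 16.7% (10th to 90th percentile 8.33 to 26.9). The highest was on chromosome 1 from 5000001 to 10000000, where 13 of 27 regions lacked siCHD4 (48.1%, interval 28.7 to 68.1). The lowest was on chromosome 17 from 1 to 5000000, with 1 of 41 (2.44%, interval 0.0617 to 12.9). These windows are the extremes of 318 and were picked for their values.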

How the data were processed

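The authors deposited 6 MACS2-style narrow-peak lists, 1 per condition, with the replicates of each condition pooled, per the file headers and peak names. The columns used were the deposited fold enrichment (a linear ratio at the summit), −log10 of p, −log10 of q and the summit offset, while the 6 display score columns were not used. The submitters' processing notes name hg19, MACS2 2.1.2, Bowtie2 2.3.4, bedtools 2.25.0 and SAMtools 1.9, besides deepTools 3.5.0 and FastQC 0.11.7. The sources used here state no settings. Lines with the same start and end counted as 1 peak with the summit of highest fold. Regions were merged with bedtools 2.31.1, and each took the peak of highest fold per list. Pileup and background were solved by taking fold as their ratio after adding 1 to each and p as the chance of a larger Poisson count. Whole pileups gave p to within 0.01% at 100% of peaks. Read totals were not used. Merging, the solution and distances were tested on simulated data. Computation used Python 3.11.15, numpy 2.4.6, scipy 1.17.1, pandas 2.3.3 and matplotlib 3.10.9.

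Regions named are the 10 of highest siNC fold, the 10 of highest median rank over the 5 lists, the 5 closest to and the 5 farthest from a siCHD4 peak, the 5 regions called in all 6 lists with the lowest siCHD4 −log10 q, and the longest run of neighbours. The leading ones are printed. The members and these rules were chosen with earlier results of these data known. Scaling, tertiles of pileup and windows were added after the data were seen.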

Additional observations from a re-analysis of the deposited data

How the results depend on the processing

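No paired analysis was possible because the replicates of each condition were pooled before peaks were called, and for the same reason no replicate could be left out. The count of 2526 stayed within 1.5 times under 13 of 15 alternatives. It was 1215 when the 6 lists kept only peaks with a −log10 q of 10 or more (20.3% of regions with the other lists, siNC fold ratio of these regions to those called in all 6 of 0.894) and 505 (8.44%) with that threshold on the 5 other lists only. The count fell in both settings, while the share, 17.6% as deposited, rose in the first and fell in the second. Lists of equal length gave 16.0% and a fold ratio of 0.890, and reciprocal overlap of 50% gave 19.9%. Not requiring siCHD3, siMBD2 or siMBD3 gave 21.6%, 20.1% and 21.0%. The fold ratio, 0.876 as deposited, was below 1 under every alternative for which it was computed. Leaving out peaks over 1 kb, chosen after the data were seen, gave 2532 regions (18.1%), and all contigs added 41. Without replicate lists, variation between libraries cannot be told apart from a difference between conditions.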
